A study of Mus musculus with 2 samples.

Results

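The genes described here are 10 genes of amino acid supply and of the response that cells mount through the transcription factor ATF4 when amino acids run short: Slc7a5, Slc3a2, Psat1, Shmt2, Mthfd2, Asns, Atf4, Ddit3, Ddit4 and Sqstm1. They were taken from the expression matrices by their symbols, which gave 11 of the 32285 listed gene identifiers, because Ddit3 stands under 2 identifiers. The second Ddit3 identifier had 0 unique molecular identifiers (UMIs, each marking 1 captured transcript) in either library, a count that allows up to 3 UMIs per library, and Ddit3 below means the first. The study profiled regulatory T cells (Tregs), a Foxp3-dependent CD4 lineage that holds immune responses in check, from mouse tumours, enriched on magnetic beads and then sorted by fluorescence, by droplet sequencing of transcript 3' ends. The cKO library came from C57BL/6 mice aged 8 to 12 weeks with the genotype JMJD1CTregcKO, in which Jmjd1c, a gene for a protein with a JmjC domain like that of histone demethylases, was deleted in Tregs. The WT library came from C57BL/6 mice of the same age range with the genotype JMJD1CWT. The labels give neither the driver of the deletion, the exons removed, the tumour model nor the number of animals behind each library. Each group has 1 library, so differences between them have no replicate check and no p-value is given. Intervals are at the 95% level and reflect the counting of UMIs alone, not the spread between animals.

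Cells import large neutral amino acids such as leucine through a heterodimer of the transport chain LAT1, made from Slc7a5, and the glycoprotein chain CD98, made from Slc3a2. Serine and glycine are made from a glycolytic intermediate by Phgdh, Psat1 and Psph, and Shmt2 and Mthfd2 then pass the carbon unit of serine into mitochondrial folate metabolism, which feeds purine synthesis. When amino acids are scarce or proteins misfold, phosphorylation of the translation factor eIF2alpha raises translation of ATF4, which activates genes of amino acid transport and synthesis, asparagine synthetase (Asns) among them. Activated T cells need large amounts of amino acids for growth and division, and mTORC1, the kinase complex that senses amino acids, is one of the regulators of Treg function.

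The genes were placed on the mm10 build with the GENCODE M21 annotation. The transporter chains lie on chromosome 8, from 121881150 to 121907694 on the minus strand (Slc7a5, ENSMUSG00000040010), and on chromosome 19, from 8706882 to 8723369 on the minus strand (Slc3a2, ENSMUSG00000010095). Psat1 (ENSMUSG00000024640), the phosphoserine aminotransferase of serine synthesis, lies on chromosome 19 from 15904678 to 15947337 on the minus strand. Shmt2 (ENSMUSG00000025403), mitochondrial serine hydroxymethyltransferase, lies on chromosome 10 from 127517123 to 127522444 on the minus strand. Mthfd2 (ENSMUSG00000005667), a mitochondrial methylenetetrahydrofolate dehydrogenase and cyclohydrolase, lies on chromosome 6 from 83305691 to 83325908 on the minus strand. Asns (ENSMUSG00000029752) lies on chromosome 6 from 7675169 to 7693254 on the minus strand. Atf4 (ENSMUSG00000042406) lies on chromosome 15 from 80255184 to 80257541 on the plus strand. Ddit3 (ENSMUSG00000025408), which encodes the stress transcription factor CHOP, lies on chromosome 10 from 127290774 to 127296288 on the plus strand, and its second identifier (ENSMUSG00000116429) covers 127290829 to 127293753 within it. Ddit4 (ENSMUSG00000020108), which encodes REDD1, an inhibitor of mTORC1 that responds to hypoxia, glucocorticoids and amino acid stress, lies on chromosome 10 from 59949669 to 59951834 on the minus strand. Sqstm1 (ENSMUSG00000015837), which encodes the autophagy receptor p62, lies on chromosome 11 from 50199366 to 50210827 on the minus strand.

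The promoters of Asns, Psat1, Mthfd2 and Shmt2 are printed because these 4 enzymes of amino acid and folate metabolism were at least 1.5-fold higher in cycling than in non-cycling Tregs of each library, as described below. Each line holds the RefSeq window of 300 bases around the transcript start on GRCm38.p6, the assembly of mm10, read 5′ to 3′ on the gene's strand. Capitals mark matches on either strand to TGATGNAA, the core of the composite element that C/EBP and ATF factors bind in amino acid response genes, or to CCAAT, the element bound by the factor NF-Y.
Asns, chr6:7693160-7693459, minus strand: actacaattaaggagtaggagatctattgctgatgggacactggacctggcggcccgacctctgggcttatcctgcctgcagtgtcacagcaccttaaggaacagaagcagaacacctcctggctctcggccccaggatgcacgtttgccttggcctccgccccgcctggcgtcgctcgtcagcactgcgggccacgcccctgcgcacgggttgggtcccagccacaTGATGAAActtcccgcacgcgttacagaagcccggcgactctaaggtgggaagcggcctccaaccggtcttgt
Psat1, chr19:15925010-15925309, minus strand: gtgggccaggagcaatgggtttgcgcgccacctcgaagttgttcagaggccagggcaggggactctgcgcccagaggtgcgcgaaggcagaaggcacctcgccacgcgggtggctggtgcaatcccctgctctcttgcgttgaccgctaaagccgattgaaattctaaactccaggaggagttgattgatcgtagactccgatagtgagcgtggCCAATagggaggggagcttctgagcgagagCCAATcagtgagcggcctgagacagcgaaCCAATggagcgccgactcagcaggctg
Mthfd2, chr6:83317555-83317854, minus strand: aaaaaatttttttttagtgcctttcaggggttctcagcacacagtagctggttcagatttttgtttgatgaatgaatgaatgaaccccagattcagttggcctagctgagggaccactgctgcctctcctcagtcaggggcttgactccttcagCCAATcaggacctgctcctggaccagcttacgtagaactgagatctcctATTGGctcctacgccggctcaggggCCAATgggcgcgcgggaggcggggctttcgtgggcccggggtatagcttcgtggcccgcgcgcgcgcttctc
Shmt2, chr10:127522395-127522694, minus strand: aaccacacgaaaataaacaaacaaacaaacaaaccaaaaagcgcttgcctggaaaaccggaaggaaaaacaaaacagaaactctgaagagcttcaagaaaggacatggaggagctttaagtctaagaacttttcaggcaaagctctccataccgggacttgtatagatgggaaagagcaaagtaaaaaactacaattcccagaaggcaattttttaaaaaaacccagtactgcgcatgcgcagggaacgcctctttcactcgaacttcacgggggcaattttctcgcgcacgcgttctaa
Of the 10 genes, 9 had a promoter window, with 2 windows for Psat1, and Slc7a5 had none. The Asns window held the letters TGATGAAA at position -23 from the transcript start, and the other windows of these genes held no match to TGATGNAA, which occurs in 1303 of 32817 mouse windows (3.97%). CCAAT was found in the windows of 5 of the 9 genes (Psat1, Mthfd2, Atf4, Ddit3 and Ddit4), against 12270 of 32817 windows (37.4%), with 3 matches in the printed Psat1 window and 3 in the Mthfd2 window. The printed Shmt2 window held neither set of letters. A match is a description of the letters, not evidence of binding.

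The cKO matrix held 37666195 UMIs in 4105 barcodes, of which 4026 were kept, and the WT matrix 49063944 UMIs in 3905 barcodes, of which 3842 were kept; 2 barcode sequences occurred in both. Cell classes were set by UMIs of marker genes: Tregs by Cd3 and by 6 or more UMIs of Foxp3, Il2ra, Ikzf2 and Ctla4, with few of CD8 or myeloid genes, CD8 T barcodes by 3 or more UMIs of Cd8a and Cd8b1, and myeloid barcodes by 10 or more of Lyz2 and C1qa. The cKO library held 2834 Tregs, 407 CD8 T and 321 myeloid barcodes, and the WT library 3240 Tregs, 213 CD8 T and 103 myeloid barcodes. Levels are given in CPM, the UMIs of a gene scaled to a common class total. Tregs with at least 2 UMIs of the mitotic genes Mki67 and Top2a, called cycling, numbered 354 in cKO and 684 in WT, and Tregs with 0 such UMIs, called non-cycling, numbered 2039 in cKO and 1962 in WT. Treg markers (7 genes, 4 of them in the rule) summed to 10635 CPM in cKO and 7634 CPM in WT Tregs, above the 1519 to 3999 CPM of the other classes. The CD8 T and myeloid classes were not clean: 198 of 407 cKO (48.6%) and 180 of 213 WT CD8 T barcodes (84.5%) also carried 6 or more UMIs of those 4 Treg genes, and 81 of 321 cKO (25.2%) and 54 of 103 WT myeloid barcodes (52.4%) carried 2 or more UMIs of Cd3e and Cd3g. The main results in these classes are therefore given with and without such barcodes. Markers of dendritic cells (Flt3, Xcr1, Ccl22 and Fscn1) summed to 21.5 CPM in cKO and 161 CPM in WT CD8 T barcodes, and to 14.8 and 197 CPM without the mixed barcodes; in Tregs they summed to 19.5 CPM in cKO and 60.6 CPM in WT. Cst3, a gene of dendritic and other myeloid cells, stood at 389 CPM in cKO and 1426 CPM in WT CD8 T barcodes. The part of these cells in the differences below was not tested. Xist, the RNA of the inactive X chromosome, was found in 0.273% of cKO and 97.1% of WT cells, and the Y-linked Ddx3y in 45.9% of cKO and 0 of 3842 WT cells, so that sex and genotype cannot be told apart. Jmjd1c itself stood in cKO at 83.6% of the WT level in Tregs (78.9 to 88.6), at 101% in CD8 T barcodes and at 67.6% in myeloid barcodes; the deleted exons are not given, so this 3' reading checks neither deletion nor labels.

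Between cKO and WT Tregs, the clearest difference among the 10 genes was in Sqstm1. Sqstm1 stood at 267 CPM (260 to 274) in cKO Tregs and 159 CPM (155 to 163) in WT Tregs, a ratio of 1.67 (1.62 to 1.73). Slc3a2 stood at 329 CPM in cKO and 236 CPM in WT, a ratio of 1.39 (1.35 to 1.44). Mthfd2 stood at 49.0 CPM in cKO and 39.0 CPM in WT, a ratio of 1.26 (1.16 to 1.36), and the sparse Slc7a5 had a ratio of 1.37 (1.11 to 1.68). Atf4 itself stood at 131 CPM in cKO and 138 CPM in WT, a ratio of 0.945 (0.904 to 0.988), and the ratios of the other genes lay between 0.814 for Asns and 1.05 for Ddit3. On the scale log2 of (CPM + 5), 1 of the 10 genes, Sqstm1 at 0.73, was at least 1.5-fold higher in cKO, a limit that 4.21% of the 8678 genes averaging 5 CPM or more passed, and 0 were 1.5-fold lower, which 4.04% of those genes were. Within cycling Tregs 0 of the 10 genes passed in either direction (background 3.97% higher and 3.8% lower of 8630 genes), and within non-cycling Tregs Sqstm1 again was the 1 higher (background 4.05% of 8538 genes) and 0 were lower (background 4.29%). Over all Tregs the median of the 10 genes was -0.01 and that of all 8678 genes -0.02. By the ratios of CPM, the transporter chains, Mthfd2 and Sqstm1 were thus higher in cKO, Sqstm1 alone past 1.5-fold, while Atf4 and Asns were not. The direction of Slc7a5 depended on how Tregs were chosen, as given below.

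**Figure D1:**
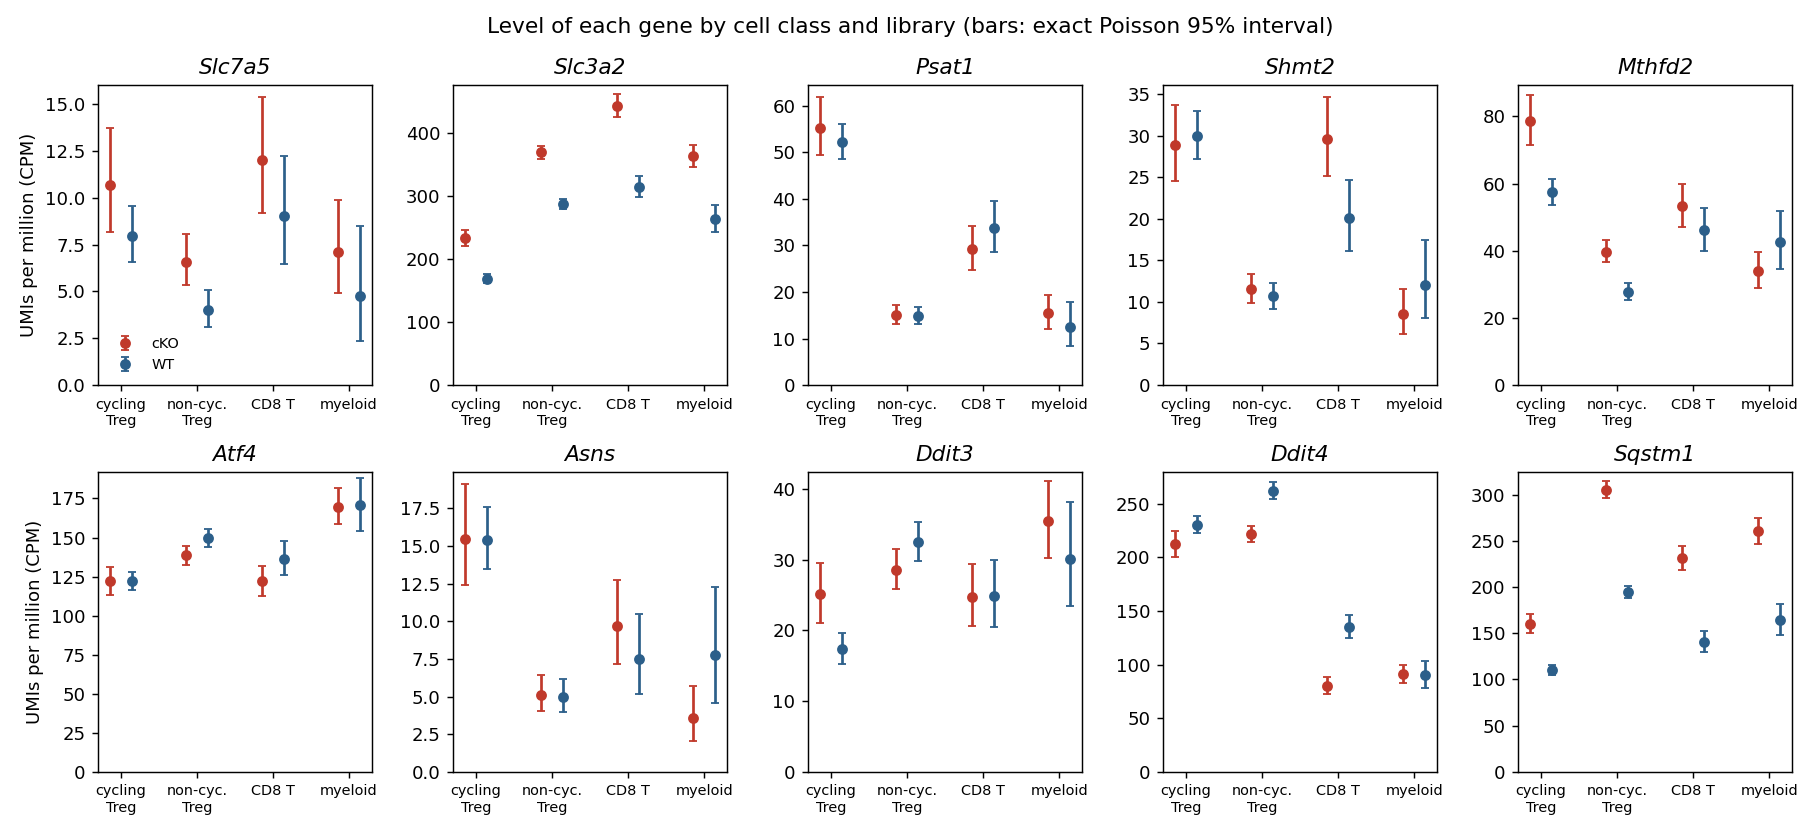
Level of each gene in CPM (y axis, linear, from 0) in cycling Tregs, non-cycling Tregs, CD8 T and myeloid barcodes (x axis), with cKO in red left of WT in blue; points are 1 library each and bars are exact Poisson 95% intervals of counting. Sqstm1 was higher in cKO in each of the 4 classes (160 against 110 CPM in cycling and 305 against 195 CPM in non-cycling Tregs), and Ddit4 stood highest in Tregs.

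Slc3a2 was higher in cKO Tregs whether cycling or not, and was lower in cycling Tregs, whereas Slc7a5 was higher in cycling Tregs. Among Tregs rich in Gzmb, split off further below, the Slc3a2 ratio of cKO to WT was 1.06 (0.979 to 1.15). Slc3a2 stood at 233 CPM in cycling cKO and 169 CPM in cycling WT Tregs, and at 369 CPM in non-cycling cKO and 288 CPM in non-cycling WT Tregs. The cKO level was thus higher in cycling (ratio 1.38, 1.29 to 1.48) and in non-cycling Tregs (1.28, 1.23 to 1.33), and within each library the cycling level was the lower, at 0.631 of the non-cycling level in cKO (0.594 to 0.671) and 0.587 in WT (0.559 to 0.616). Slc3a2 was also higher in cKO in myeloid barcodes (363 against 263 CPM, ratio 1.38) and in CD8 T barcodes as classed (442 against 315 CPM, ratio 1.41). Without the CD8 T barcodes rich in Treg or myeloid UMIs, which left 207 cKO and 32 WT barcodes, its direction turned: 542 CPM in cKO and 678 CPM in WT, a ratio of 0.80 (0.701 to 0.915), in barcodes whose dendritic cell markers also differed between the libraries, as given above. Without myeloid barcodes that held 2 or more Cd3e and Cd3g UMIs the ratio was 1.48 (1.28 to 1.71).

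Slc7a5 was sparse, with 172 UMIs in cKO and 204 in WT Tregs, or 7.31 and 5.35 CPM. Its level was higher in cycling than in non-cycling Tregs, at 10.7 CPM against 6.59 CPM in cKO (ratio 1.62, 1.15 to 2.26) and 7.95 CPM against 3.997 CPM in WT (ratio 1.99, 1.46 to 2.72). In non-cycling Tregs cKO stood 1.65-fold above WT (1.20 to 2.28), and in cycling Tregs the interval of the ratio of 1.34 reached from 0.966 to 1.85. Under a stricter Treg definition (at least 1 Foxp3 UMI and none of Cd8a, Cd8b1, Lyz2 or C1qa), with 726 cKO and 868 WT cells, Slc7a5 stood at 4.93 CPM in cKO and 5.26 CPM in WT, a ratio of 0.937 (0.586 to 1.47), so its direction in Tregs depended on how they were chosen. Slc3a2 kept a ratio of 1.38 there (1.30 to 1.47). Without the CD8 T barcodes rich in Treg or myeloid UMIs, Slc7a5 had 14 UMIs in cKO and 11 in WT, or 7.38 and 26.1 CPM, a ratio of 0.283 (0.119 to 0.688) that lies opposite to the 1.33 of the class as set by the rule.

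The enzymes of serine, folate and asparagine metabolism went with the cell cycle in both libraries. Psat1 stood at 55.3 CPM in cycling against 15.0 CPM in non-cycling cKO Tregs, a ratio of 3.69 (3.09 to 4.41), and at 52.3 against 14.8 CPM in WT, a ratio of 3.53 (3.06 to 4.08). Shmt2 stood at 28.8 against 11.5 CPM in cKO (2.51, 2.004 to 3.13) and 29.9 against 10.7 CPM in WT (2.81, 2.36 to 3.36). Mthfd2 stood at 78.6 against 39.7 CPM in cKO (1.98, 1.75 to 2.25) and 57.5 against 27.7 CPM in WT (2.07, 1.85 to 2.32). Asns stood at 15.5 against 5.12 CPM in cKO (3.02, 2.19 to 4.18) and 15.4 against 4.98 CPM in WT (3.10, 2.40 to 4.02). For each of these 4 enzymes the intervals of the ratio in cKO and in WT overlapped. On the scale log2 of (CPM + 5), which lowers the ratios of sparse genes such as Slc7a5, they were the 4 of the 10 genes at least 1.5-fold higher in cycling Tregs, the same 4 in cKO, where 9.45% of 8573 genes passed that limit, and in WT, where 8.92% of 8759 did. Sqstm1 and Slc3a2 were at least 1.5-fold lower in cycling Tregs of cKO (background 5.48%), and Sqstm1, Slc3a2 and Ddit3 in WT (background 5.26%). Without the 5% of barcodes with the most UMIs, 2 of the 4 enzymes stayed past the limit in cKO, Psat1 at 1.16 and Mthfd2 at 0.89 on the log2 scale, while Shmt2 stood at 0.35 and Asns at 0.17, and of the lower genes Sqstm1 stayed at -0.77 and Slc3a2 stood at -0.43. In WT the same exclusion left 3 of the 4 enzymes past the limit, with Asns at 0.51, and Asns stood at 0.54 in WT with cells thinned before classes were set. Ddit3 in WT, at -0.75, no longer passed without those barcodes (-0.53), with cells thinned first (-0.40) or under a stricter Treg definition (-0.45).

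**Figure D2:**
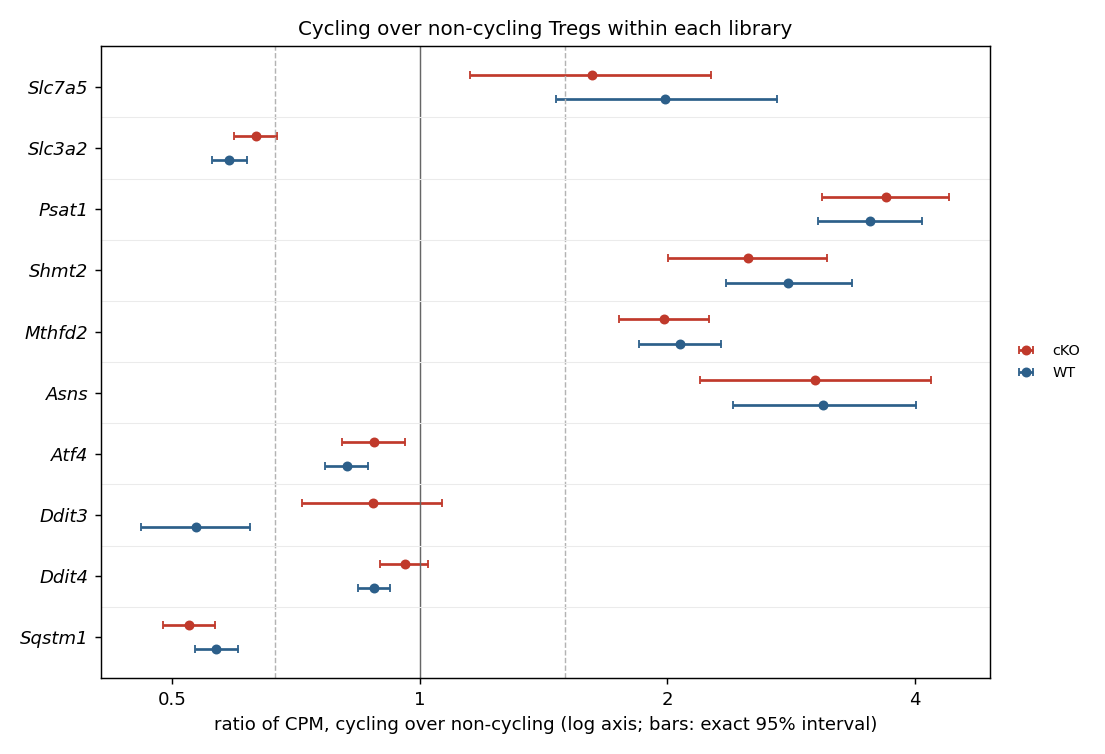
Ratio of the level in cycling to that in non-cycling Tregs (x axis, log scale) for each gene, with cKO in red above WT in blue; bars are exact 95% intervals of counting and dashed lines mark 1.5-fold in either direction. Psat1, Asns, Shmt2 and Mthfd2 lay right of the line in both libraries (1.98 to 3.69 in cKO, 2.07 to 3.53 in WT), as did the sparse Slc7a5 (1.62 in cKO, 1.99 in WT); Sqstm1 and Slc3a2 lay left of the lower line in both libraries and Ddit3 in WT (0.534).

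Cycling cells had more UMIs per cell, with medians of 13619 in cycling and 5924 in non-cycling cKO Tregs and of 18151 and 7361 in WT, so the levels were also read after each cell had been thinned to 4100 UMIs and binned by its Mki67 and Top2a UMIs. Psat1 stood at 13.8, 16.3, 36.0 and 33.9 CPM in cKO Tregs with 0, 1, 2 to 4 and 5 or more such UMIs, and at 14.1, 16.7, 37.2 and 60.5 CPM in the same bins of WT. Mthfd2 stood at 36.4, 45.7, 96.0 and 102 CPM in cKO and at 26.2, 23.9, 43.7 and 70.6 CPM in WT. Sqstm1 ran the other way, at 314, 293, 194 and 119 CPM in cKO and 200, 189, 120 and 98.8 CPM in WT. The levels of Psat1 and Mthfd2 stood higher, and those of Sqstm1 lower, from 2 cycle UMIs upward in each library. Shmt2 stood at 11.6, 11.6, 24.0 and 27.1 CPM in cKO and at 11.1, 13.3, 19.7 and 36.3 CPM in WT. The sparse Asns stood at 5.73, 1.55, 8.00 and 27.1 CPM in cKO and at 4.47, 7.78, 9.84 and 14.1 CPM in WT. In cKO its bin of 2 to 4 rested on 4 UMIs, with an interval (2.18 to 20.5) that held the level of the bin of 0. The bin of 5 or more held 72 cKO and 121 WT Tregs, so that Psat1 rested there on 10 and 30 UMIs.

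Between the libraries, these enzymes divided. In all Tregs together Psat1 stood at 25.1 CPM in cKO and 29.2 CPM in WT (ratio 0.862, 0.779 to 0.953), Shmt2 at 15.9 and 18.4 CPM (0.864, 0.760 to 0.981), and Asns at 7.56 and 9.29 CPM (0.814, 0.676 to 0.978). Within cycling Tregs their ratios were 1.06, 0.963 and 1.004, and within non-cycling Tregs 1.012, 1.08 and 1.03, with intervals that included 1 in each case. Beside this, cycling cells made up 12.5% of Tregs in cKO (11.3 to 13.8) and 21.1% in WT (19.7 to 22.6); after thinning to 4100 UMIs the shares were 7.86% and 10.99%. With cells thinned before classes were set, the Asns difference over all Tregs was 0.05 on the log2 scale in place of -0.19, and under the stricter Treg definition its ratio was 0.991 (0.687 to 1.42). Mthfd2, the next enzyme after Shmt2 in mitochondrial folate metabolism, differed from the rest: its ratio was 1.37 in cycling (1.22 to 1.54) and 1.43 in non-cycling Tregs (1.26 to 1.62), each above the 1.26 of all Tregs together.

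**Figure D3:**
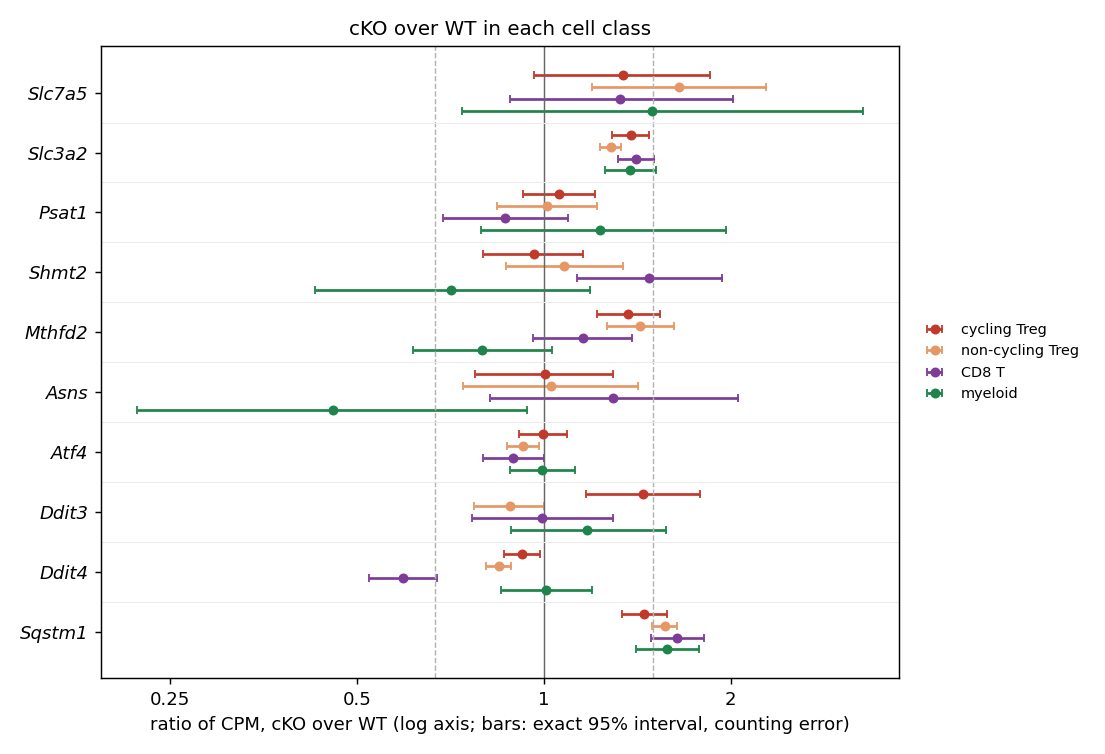
Ratio of cKO to WT level (x axis, log scale) for each gene, with cycling Tregs, non-cycling Tregs, CD8 T and myeloid barcodes from top to bottom within a gene; bars are exact 95% intervals of counting and dashed lines mark 1.5-fold. Sqstm1 (1.45 to 1.64) and Slc3a2 (1.28 to 1.41) lay right of 1 in the 4 classes, Psat1 and Asns lay at 1 in both Treg classes, and Ddit4 in CD8 T lay at 0.594.

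Outside Tregs the enzymes were less even. In myeloid barcodes Asns stood at 3.54 CPM in cKO and 7.76 CPM in WT (0.457, 0.221 to 0.939) on 17 and 18 UMIs, and without myeloid barcodes holding 2 or more Cd3e and Cd3g UMIs the ratio was 0.311 (0.120 to 0.818) on 11 and 10 UMIs. Shmt2 in CD8 T barcodes stood at 29.6 CPM in cKO and 20.04 CPM in WT, a ratio of 1.48 (1.13 to 1.94). Without the CD8 T barcodes rich in Treg or myeloid UMIs, Shmt2 had 46 UMIs in cKO and 3 in WT, a ratio of 3.41 (1.10 to 17.1), and Asns had 16 UMIs in cKO (8.43 CPM) and 0 in WT, where the exact upper bound of 8.75 CPM lies above the cKO level. Mthfd2 had ratios of 1.16 in CD8 T and 0.796 in myeloid barcodes, and of 1.02 and 0.962 without the mixed barcodes, with intervals that included 1. As classed, 1 of the 10 genes, Sqstm1, was at least 1.5-fold higher in cKO CD8 T barcodes (background 3.37% of 8746 genes) and 1, Ddit4, was lower (background 8.18%). In myeloid barcodes Sqstm1 was the 1 higher (background 4.29% of 8559 genes) and 0 were lower (background 5.14%). Without the mixed barcodes, Sqstm1, Shmt2 and Asns were the 3 past the limit upward in CD8 T, Asns on 16 and 0 UMIs, and Slc7a5 the 1 downward. Of 8786 genes 17.3% were higher and 24.5% lower there. In myeloid barcodes Psat1 was then the 1 higher (log2 0.76, background 8.25% of 8173 genes) and Asns the 1 lower (-0.92, background 6.67%), while Sqstm1 stood at 0.51. So many genes passed the limit between the 207 cKO and 32 WT CD8 T barcodes that the counts there say little of the 10 genes.

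The transcript of Atf4 varied least over the 8 groups formed by 4 classes and 2 libraries, within 0.47 on the log2 scale, from 122 CPM in cycling Tregs of either library and in cKO CD8 T barcodes to 170 CPM in cKO and 171 CPM in WT myeloid barcodes. Its cKO to WT ratio was 0.999 in cycling Tregs (0.913 to 1.09), 0.925 in non-cycling Tregs (0.872 to 0.981), 0.894 in CD8 T barcodes and 0.995 in myeloid barcodes. Without the mixed barcodes the last 2 were 0.773 (0.592 to 1.02) and 1.02 (0.851 to 1.23). Cycling Tregs held less of it than non-cycling Tregs, at 0.879 in cKO (0.805 to 0.960) and 0.815 in WT (0.766 to 0.866), the opposite direction to Asns and the other 3 enzymes. ATF4 is regulated chiefly at translation, which these counts do not read.

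Ddit3 stood at 27.5 CPM in cKO Tregs (25.4 to 29.7) and 26.3 CPM in WT Tregs (24.7 to 28.0), levels that did not differ beyond counting error. Split by the cell cycle, it stood at 25.1 CPM in cKO and 17.4 CPM in WT for cycling Tregs (ratio 1.45, 1.17 to 1.78), and 28.6 CPM in cKO and 32.5 CPM in WT for non-cycling Tregs (0.881, 0.773 to 1.002). In WT, cycling Tregs held 0.534 of the non-cycling level (0.458 to 0.621), and in cKO 0.877 (0.719 to 1.06). The cycling against non-cycling difference in cKO turned to 0.23 on the log2 scale with cells thinned before classes were set. Under the stricter Treg definition the log2 difference between libraries in cycling Tregs was 0.04 in place of 0.43. The difference between the cKO and WT ratios was not tested.

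Ddit4 was higher in Tregs than in the other classes. It stood at 227 CPM in Tregs, 80.1 CPM in CD8 T and 90.9 CPM in myeloid barcodes of cKO, and at 249, 135 and 90.1 CPM in the same classes of WT. The Treg level was 2.83-fold the CD8 T level in cKO (2.56 to 3.14) and 1.84-fold in WT (1.70 to 2.004), and 2.50-fold (2.26 to 2.76) and 2.76-fold (2.41 to 3.18) the myeloid level. On the log2 scale Ddit4 was the 1 of the 10 genes at least 1.5-fold higher in Tregs than in CD8 T barcodes in each library, a limit passed by 8.55% of genes in cKO and 3.67% in WT. Shmt2 was the 1 lower, in cKO alone (background 4.43% in cKO and 4.21% in WT). Against myeloid barcodes 2 of the 10 genes were higher in each library, Ddit4 and Shmt2 in cKO (background 23.4%) and Ddit4 and Psat1 in WT (background 21.5%), and 0 were lower (background 17.9% in cKO and 16.9% in WT). Without the mixed barcodes Ddit4 stood lower still in the other classes, at 39.0 CPM in cKO and 47.4 CPM in WT CD8 T barcodes and at 52.1 CPM in cKO and 44.9 CPM in WT myeloid barcodes. The ratio of cKO to WT CD8 T barcodes, 0.594 (0.523 to 0.674) as classed, was then 0.822 (0.496 to 1.42).

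Within Tregs, Ddit4 went with Gzmb, the gene of the cytotoxic protease granzyme B, whose level set the libraries apart. Of Tregs thinned to 4100 UMIs, 1838 of 2468 in cKO and 552 of 3129 in WT held 3 or more Gzmb UMIs, and 378 in cKO and 2120 in WT held 0. In cKO, Ddit4 stood at 271 CPM in Tregs with 3 or more Gzmb UMIs and 121 CPM in Tregs with 0, a ratio of 2.24 (1.93 to 2.62). In WT it stood at 391 CPM and 250 CPM, a ratio of 1.56 (1.44 to 1.69). Among all genes compared in this way, 5.16% in cKO and 3.31% in WT were at least 1.5-fold higher in Gzmb-rich Tregs. Of the 10 genes Ddit4 passed this limit in cKO, and Ddit4 and Ddit3 in WT, where Ddit3 stood at 50.4 against 30.3 CPM (1.66, 1.32 to 2.08). Asns was at least 1.5-fold lower in Gzmb-rich WT Tregs (background 3.01%) on 5 and 53 UMIs, and none of the 10 genes was in cKO (background 4.08%).

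Within each side of the Gzmb split, the libraries differed in Ddit4 by more than they did over all Tregs. Among Tregs with 3 or more Gzmb UMIs, cKO stood at 0.693 of WT (0.640 to 0.750). The split does not match the level of Gzmb there, whose median was 19 UMIs in cKO and 7 UMIs in WT. Among Tregs with 0 Gzmb UMIs, cKO stood at 0.483 of WT (0.414 to 0.561), and over all Tregs together at 0.913 (0.883 to 0.944). The value over all Tregs used all UMIs, whereas the split used thinned cells. With cells thinned before classes were set, the ratio over all Tregs was 0.843 (0.800 to 0.888). The lowest Ddit4 level of the 4 groups was that of Gzmb-negative cKO Tregs (121 CPM) and the highest that of Gzmb-rich WT Tregs (391 CPM). At 3 or more Gzmb UMIs, Slc3a2 stood at 379 CPM in cKO and 358 CPM in WT (1.06, 0.979 to 1.15). With 0 Gzmb UMIs it stood at 346 CPM in cKO and 261 CPM in WT (1.33, 1.20 to 1.46). Across the split Slc3a2 moved by a factor of 1.09 in cKO (0.998 to 1.20) and 1.37 in WT (1.26 to 1.49). At 3 or more Gzmb UMIs, 2 of the 10 genes were at least 1.5-fold higher in cKO (background 3.92% of 8543 genes), Sqstm1 and the sparse Asns on 47 and 5 UMIs, and 0 were lower (background 5.27%). Ddit4 was the 1 at least 1.5-fold lower in cKO at 0 Gzmb UMIs (background 7.5% of 8576 genes), and Sqstm1 and Mthfd2 were higher (background 4.72%), Mthfd2 at 50.3 CPM in cKO and 28.6 CPM in WT (1.76, 1.34 to 2.27). Cycling Tregs, with 2 or more Mki67 and Top2a UMIs, made up 6.64% of Gzmb-rich (5.54 to 7.87) and 11.6% of Gzmb-negative Tregs in cKO (8.59 to 15.3), and 9.96% (7.59 to 12.8) and 11.2% (9.87 to 12.6) in WT. Their part in these differences was not tested.

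**Figure D4:**
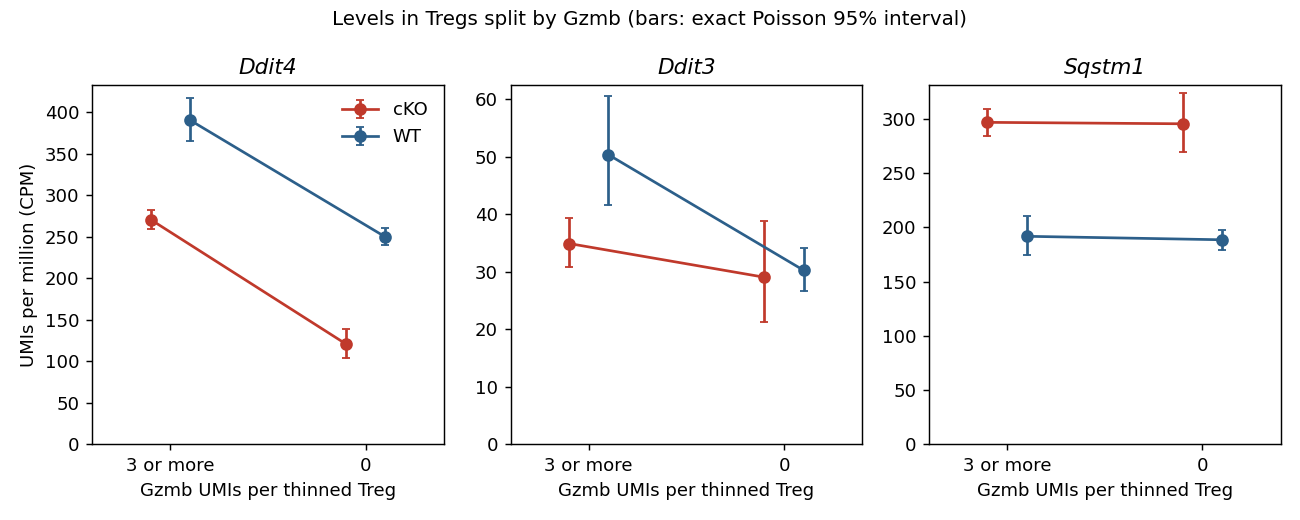
Levels in CPM (y axes, linear, from 0) of Ddit4, Ddit3 and Sqstm1 in thinned Tregs with 3 or more or with 0 Gzmb UMIs (x axes), with cKO in red and WT in blue; bars are exact Poisson 95% intervals of counting. Ddit4 was higher in Gzmb-rich Tregs of each library (271 against 121 CPM in cKO, 391 against 250 CPM in WT), and Sqstm1 was level across the split.

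Sqstm1 was the 1 of the 10 genes past 1.5-fold in cKO over all Tregs, and it was higher in each class. It stood at 160 CPM in cKO and 110 CPM in WT cycling Tregs (ratio 1.45, 1.34 to 1.58) and at 305 CPM and 195 CPM in non-cycling Tregs (1.57, 1.497 to 1.64). In CD8 T barcodes it stood at 231 CPM in cKO and 141 CPM in WT (1.64, 1.49 to 1.81). In myeloid barcodes it stood at 260 CPM in cKO and 165 CPM in WT (1.58, 1.41 to 1.78). The part of the deletion in these differences was not tested. Without mixed barcodes the ratios were 1.87 in CD8 T (1.38 to 2.60) and 1.43 in myeloid barcodes (1.21 to 1.70). The share of Tregs with a Sqstm1 UMI, after thinning to 4100 UMIs, was 62.2% of 2468 in cKO (60.2 to 64.1) and 49.7% of 3129 in WT (47.9 to 51.5), and unthinned 76.9% in cKO and 76.2% in WT. No class here is known to lack Sqstm1, so free RNA in droplets could not be gauged for it. On the 2 sides of the Gzmb split its ratio was 1.55 (3 or more UMIs) and 1.57 (0 UMIs), and across the Gzmb split its level moved by a factor of 1.004 in cKO (0.908 to 1.11) and 1.02 in WT (0.913 to 1.13).

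Some heat-shock transcripts were also higher in cKO, beside Sqstm1. A list of 15 heat-shock and tissue-dissociation genes summed to 8383 CPM in cKO and 6312 CPM in WT Tregs, 7110 and 5509 CPM in CD8 T barcodes and 8190 and 6958 CPM in myeloid barcodes. Without the mixed barcodes the sums were 6719 CPM in cKO and 4200 CPM in WT CD8 T and 7891 CPM in cKO and 6930 CPM in WT myeloid barcodes. In Tregs 5 of its 15 genes were at least 1.5-fold higher in cKO (background 4.21%) and 0 lower (background 4.04%), with a median of 0.30. By sign 10 were higher and 5 lower. The largest ratios were those of Hspa1a (1.21), Hspa8 (1.12) and Hspa1b (0.99), which encode Hsp70 chaperones. Hspa8 alone stood at 2337 CPM in cKO and 1073 CPM in WT Tregs. In CD8 T barcodes 6 were higher (background 3.37%) and 0 lower (background 8.18%), with a median of 0.30 and 5 of negative sign. In myeloid barcodes 3 were higher (background 4.29%) and 1 lower (background 5.14%), with a median of 0.02 and 4 of negative sign. Hspa1a, Hspa8 and Hspa1b stood at 1.31, 1.04 and 1.23 in CD8 T and at 1.70, 0.98 and 1.30 in myeloid barcodes, again on the log2 scale. Without the mixed barcodes they stood at 3.59, 1.62 and 1.14 in CD8 T and 1.69, 0.94 and 1.80 in myeloid barcodes. Without the Tregs in the highest 10% of each library by this list, the Sqstm1 ratio was 1.67 (1.61 to 1.73) and that of Slc3a2 1.398 (1.35 to 1.44), as large as with them. This cut was made within each library, so a shift of a whole library in these genes stays in place. The part of heat-shock transcripts in either ratio was not tested. Of 21 measured genes of autophagy and of the NRF2 antioxidant response, which p62 activates by binding Keap1, 0 passed 1.5-fold in Tregs in either direction and the median was 0.07. Hmox1, which encodes haem oxygenase, stood at 0.53, Nfe2l2, the gene of NRF2 itself, at 0.45, and Gabarapl1, a partner of p62 on autophagosomes, at -0.45. By the ratio of CPM, Hmox1 was 1.79-fold higher in cKO Tregs, at 11.3 against 6.3 CPM. The added 5 CPM lowers the ratio of such sparse genes. In CD8 T barcodes as classed Hmox1 stood at 0.699 on the log2 scale, on 42 and 14 UMIs. In myeloid barcodes as classed it stood at 1.61, with 169 CPM in cKO and 52.2 CPM in WT. It was the 1 list gene past 1.5-fold upward in each class, against 2 downward in CD8 T and 1 in myeloid barcodes.

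Further genes of these and related pathways were read from 11 lists without the 10 genes above, 210 genes in all, of which 179 averaged 5 CPM or more in Tregs. The lists include the heat-shock and dissociation genes just described. Between the libraries 9 of the 179 were at least 1.5-fold higher in cKO, against 4.21% of all genes, and 2 lower, against 4.04%. Of these 9, 5 were heat-shock and dissociation genes. Another 1, Myc, was in the list of Myc and ribosome biogenesis, and 1, Egln3, in that of hypoxia and glucocorticoid genes. Of 11 other amino acid transporters measured 0 passed in either direction, and by sign 4 were higher and 7 lower. The largest ratio was that of the sparse Slc36a4 at -0.42, with 4.93 CPM in cKO and 8.26 CPM in WT. Pqlc2, also sparse, stood at 0.38, with 7.39 CPM in cKO and 4.54 CPM in WT. Slc1a5, a glutamine transporter, stood at 0.38, at 86.6 CPM in cKO and 65.6 CPM in WT. Of 17 other serine, glycine and one-carbon enzymes 0 were higher and 1 lower, Gldc of the glycine cleavage system at -1.01. Gldc stood at 2.85 CPM in cKO and 10.8 CPM in WT. Got1, the next largest, stood at 0.55, with 821 CPM in cKO and 561 CPM in WT, and Mthfd1 at -0.49. By sign 7 were higher and 10 lower, while the sum of the list was 1272 CPM in cKO and 1049 CPM in WT. Phgdh, the first enzyme of serine synthesis, stood at 0.01. Of 20 aminoacyl-tRNA synthetases, among them known ATF4 targets, 0 passed and 15 had a negative sign, led by Lars, the leucyl-tRNA synthetase, at -0.52. Of 11 further ATF4 targets Jdp2 was higher (0.87) and Atf3 lower (-0.70), with a list median of 0.16. Of 22 genes of mTORC1 and its amino acid sensors Rheb, the GTPase that activates mTORC1, passed at 0.64. Of 14 genes around eIF2alpha none passed, with a median of -0.20.

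The same lists were then read between cycling and non-cycling Tregs. Of the other serine, glycine and one-carbon enzymes 9 of 17 were at least 1.5-fold higher in cycling Tregs of cKO and 10 of 18 in WT, against 9.45% of all genes in cKO and 8.92% in WT, and 1 was lower in each, Got1, against 5.48% and 5.26%. Phgdh stood at 1.65 in cKO and 1.82 in WT, and Psph, the last enzyme of serine synthesis, at 0.61 and 0.70. The list also holds Tyms, the thymidylate synthase that cells express in S phase, at 3.29 in cKO and 2.74 in WT. Of 20 aminoacyl-tRNA synthetases 3 in cKO and 6 in WT passed, beside the same shares of all genes, with 19 and 20 of positive sign and medians of 0.44 and 0.51, against medians of -0.05 over all genes in either library. Of 11 further ATF4 targets 0 were higher in either library and 2 in cKO and 4 in WT were lower, and of the other amino acid transporters 0 passed in either library. The lists of serine metabolism and tRNA charging thus had medians above 0 in cycling Tregs, where Psat1, Shmt2, Mthfd2 and Asns also stood higher, and the median of the further ATF4 targets was -0.22 in each library.

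**Figure D5:**
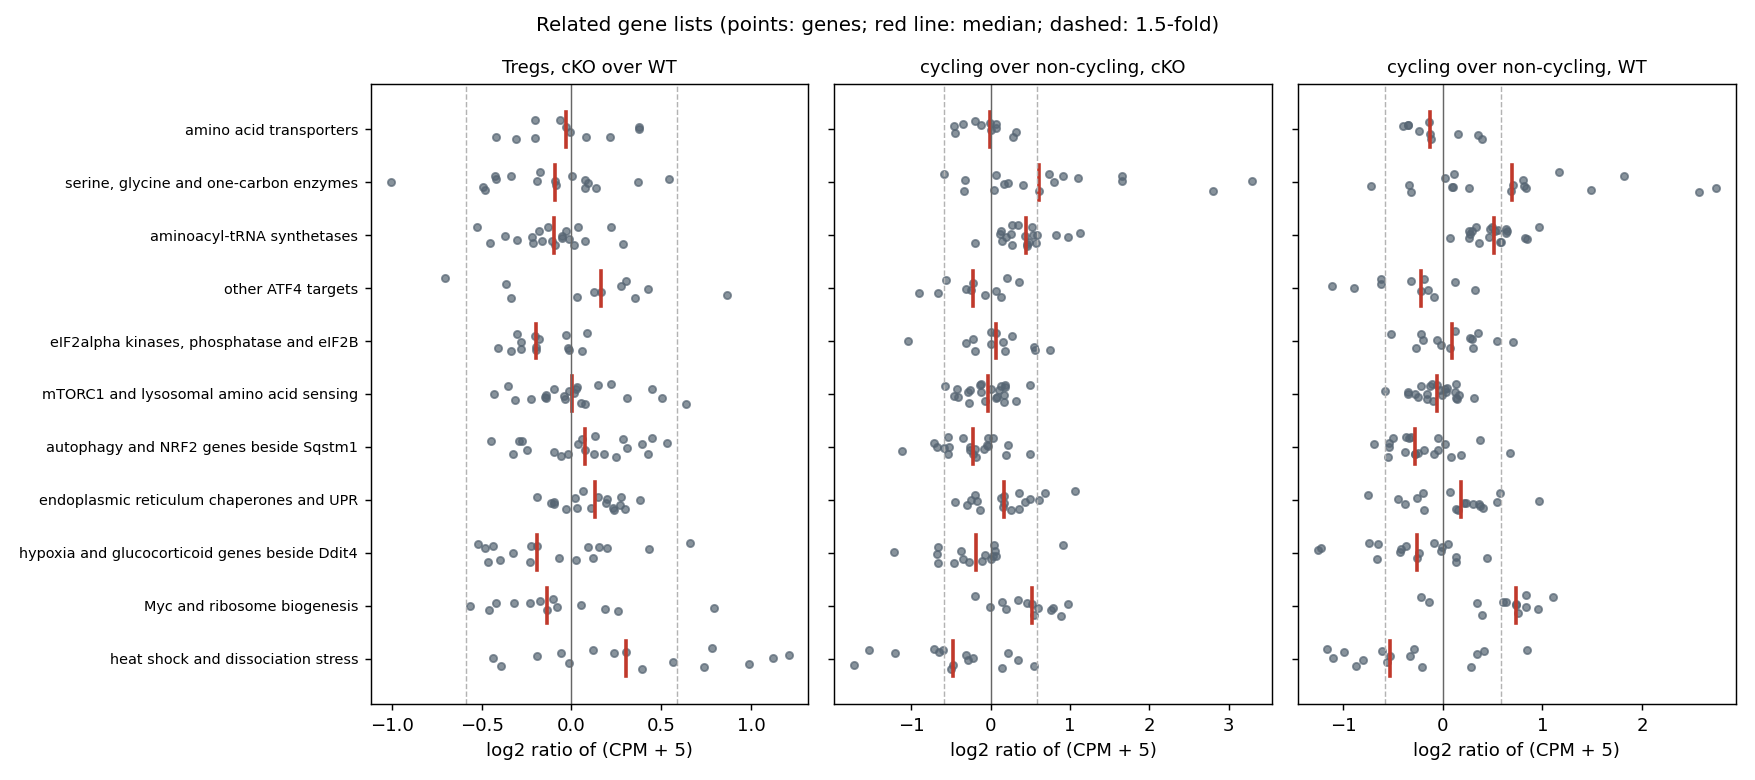
Log2 ratio of (CPM + 5) for the measured genes of 11 related lists (rows), for cKO over WT Tregs (left) and for cycling over non-cycling Tregs in cKO (middle) and WT (right); points are genes, red lines are list medians and dashed lines mark 1.5-fold. One-carbon enzymes (medians 0.61 in cKO and 0.69 in WT) and aminoacyl-tRNA synthetases (0.44 and 0.51) stood right of 0 in cycling Tregs, while their medians between cKO and WT Tregs were -0.09 and -0.10.

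Over the 8 groups of class and library, the 4 enzymes were most alike among the members, with Pearson's r of log2 (CPM + 5) from 0.85 for Psat1 and Mthfd2 to 0.91 for Shmt2 and Asns. Each ran opposite to Atf4, down to an r of -0.90 for Shmt2, and Slc3a2 ran with Sqstm1 (0.82). These values describe 8 groups that share 2 libraries and carry no test. Among 5229 genes averaging 20 CPM or more, those whose patterns were most like that of Psat1 included the condensin subunit gene Ncapd2 (0.996) and Incenp, the gene of a chromosomal passenger protein (0.99). Closest to Shmt2 were Rps2, a ribosomal protein gene, Larp7 and Gar1, a component of small nucleolar ribonucleoproteins (0.98 each). Closest to Mthfd2 were Ddost, Nrm and Pa2g4 (0.96 to 0.97), and closest to Asns were Nono, Ndufs6 and Timm23 (0.96 each). Sqstm1 was most like Tob1 (0.97), the NF-kappaB subunit gene Rela (0.96) and the heat-shock gene Hspa1b (0.95). Slc3a2 was most like Sp100, Ppm1h and Txnip (0.92 to 0.97), and Slc7a5 most like Polr2l, Srsf6 and Srsf7 (0.95 to 0.98). Ddit4 was most like Bclaf3, Trappc3 and Tent5a (0.97 to 0.99). The r does not read the size of a change: Trappc3 spanned only 54.7 to 60.2 CPM, whereas Ddit4 spanned 1.65 on the log2 scale. Ddit3 was most like Dnajb9, an endoplasmic reticulum co-chaperone gene, Xaf1 and Zswim8 (0.93 to 0.96). Atf4 was most like Tesk1, Irf2bp2 and Malt1 (0.98 each).

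Cell by cell, few of the genes were seen together. After thinning to 4100 UMIs a Treg held UMIs of a mean of 2.59 of the 10 genes in cKO and 2.45 in WT, and 5 or more of them were found in 5.79% of cKO and 3.68% of WT Tregs. Slc7a5 was found in 2.47% of cKO (1.90 to 3.16) and 1.28% of WT Tregs (0.915 to 1.74), and unthinned in 4.87% and 4.88%. Asns was found in 2.03% of cKO (1.51 to 2.66) and 2.30% of WT Tregs (1.80 to 2.89), and unthinned in 4.06% and 6.85%. Mthfd2 was found in 14.8% of cKO (13.4 to 16.3) and 10.4% of WT Tregs (9.37 to 11.5), and unthinned in 25.7% and 25.3%. At this depth most Tregs without an Asns or Slc7a5 UMI cannot be told from Tregs that express the gene at a low level.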

How the data were processed

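The authors deposited whole-number UMI counts per gene and barcode for 1 cKO and 1 WT library of tumour Tregs, made with Cell Ranger 5.0.1 on the mm10 build per the submitters' processing notes; barcodes were already filtered when deposited. Barcodes with at least 500 genes and under 10% mitochondrial UMIs were kept, and no doublet caller was run. Classes were set by summed UMIs: Tregs had Cd3e and Cd3g of at least 1, Foxp3, Il2ra, Ikzf2 and Ctla4 of at least 6, Cd8a and Cd8b1 of at most 1, and Lyz2 and C1qa of at most 2. CD8 T barcodes had Cd8a and Cd8b1 of at least 3, and myeloid barcodes Lyz2 and C1qa of at least 10. UMIs were summed by library and class and divided by the class total to give CPM, a count scaled to a common total. Levels carry exact Poisson intervals and ratios carry exact conditional binomial intervals. Log2 ratios used CPM + 5, which understates the ratio of low genes, and a limit of 1.5-fold (0.585). The split by Gzmb, and shares of cells, used cells thinned to 4100 UMIs, leaving out shallower cells.

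The 10 genes, the related lists and the split were chosen with earlier results of these data known. Named list genes are the up to 3 largest ratios of a list in Tregs, and for each member the 3 genes most like it; Phgdh, Psph and Tyms, and the CCAAT motif, the mixed-barcode exclusions, the cycle bins and the exclusion of heat-shock-rich Tregs, were added after the values were seen. Levels of different genes are not compared, because 3' capture differs between transcripts. Median depth was 6953 UMIs in cKO and 9088 in WT cells. The calculations were tested on simulated counts and run with Python 3.11.15, numpy 2.4.6, pandas 2.3.3 and scipy 1.17.1. A planned split of Tregs and some single genes are not reported here.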

Additional observations from a re-analysis of the deposited data

Results flagged for a closer look

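Shmt2 differed between libraries in opposite directions in CD8 T and Treg classes: the ratio of cKO to WT was 1.48 in CD8 T barcodes and 0.864 in Tregs, a gap of 0.63 between the log2 ratios. The gap was not tested, since each group has 1 library. Within cycling Tregs the Shmt2 ratio was 0.963 (0.799 to 1.16) and within non-cycling Tregs 1.08 (0.869 to 1.34). Over all Tregs it was 0.925 (0.718 to 1.19) with cells thinned before classes were set. Under the stricter Treg definition it was 0.859 (0.662 to 1.11). The Treg side of the contrast thus did not go beyond counting error in these readings. Of the CD8 T barcodes, 48.6% in cKO and 84.5% in WT carried 6 or more UMIs of Treg genes, and their part in the result was not tested beyond the ratio without them, which was 3.41 (1.10 to 17.1) on 46 and 3 UMIs.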

How the results depend on the processing

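Over 14 settings the log2 ratio of cKO to WT Tregs lay between 0.64 and 0.82 for Sqstm1, 0.35 and 0.48 for Slc3a2, 0.26 and 0.49 for Mthfd2 and -0.05 and 0.49 for Slc7a5. Of values for single genes, 1169 stayed within their counting interval of the value reported and 91 moved. Some settings cannot change some classes. The mixed-barcode exclusions leave Treg values as they were, and the stricter Treg rule and the heat-shock exclusion leave CD8 T and myeloid values. Such values are among those that stayed and among the equal counts below, which therefore overstate how far the results were tried. Counts of the 10 genes past 1.5-fold were equal in 213 cases, differed by no more than 1.5 times in 10 and by more in 29, and those of the related lists were equal in 8 cases and differed by 1 gene in 2; the cause was not tested. The 10 were in cycling against non-cycling Tregs. With a pseudocount of 1, cells thinned first or the stricter Treg rule 5 were higher in cKO. In WT 5 were higher with a pseudocount of 1, 3 with cells thinned first or without the 5% of barcodes with most UMIs, and 2 were lower under those 2 settings, the stricter rule and the mean of CPM per cell. The 29 were as follows. With cells thinned before classes, 2 were higher in cycling cKO Tregs, 4 higher in cKO CD8 T and 3 lower in cKO myeloid barcodes, 1 was lower in cycling than non-cycling cKO Tregs, and across the Gzmb split of WT 1 was higher and 0 lower. Without the 5% of barcodes with most UMIs, 1 was higher in cycling cKO Tregs, 2 higher in CD8 T and 1 lower in myeloid barcodes of cKO, 2 were higher and 1 lower in cycling than non-cycling cKO Tregs, and in WT 0 were lower across the Gzmb split. With a pseudocount of 1, 2 were higher in non-cycling cKO Tregs, 1 lower in cKO myeloid barcodes and 2 lower across the Gzmb split of WT. With median-of-ratios size factors or the mean of CPM per cell, 1 was lower in cycling than non-cycling cKO Tregs. Under the stricter Treg rule, across the Gzmb split 2 were higher and 1 lower in cKO and 1 higher and 2 lower in WT. Without barcodes with 3 or more globin UMIs, across the Gzmb split 1 was lower in cKO, and 1 higher and 0 lower in WT. Without shared barcodes, with thinning drawn anew, 0 were lower across the Gzmb split of WT. With at least 1000 genes per cell, 0 were lower across the Gzmb split of WT. Without heat-shock-rich Tregs, 2 were lower across the Gzmb split of WT. Without mixed barcodes, 3 were higher in cKO CD8 T and 1 lower in cKO myeloid barcodes.

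No paired analysis was possible because each group has 1 library, and leaving out a replicate was not possible for the same reason. Sex, sequencing depth and genotype differ together between the libraries and cannot be told apart. Counts of Slc7a5 and Asns in the Gzmb split rest on few UMIs, and a count of 1 or 2 genes then moves with small changes in the cells chosen.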
